A study of Mus musculus with 18 samples.

Results

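The genes described here are the translation initiation and elongation factors of the mouse: every gene whose symbol in the platform annotation starts with Eif or Eef followed by a digit. By this rule 58 of the 18191 genes measured were members, with 155 probe sets between them, and 42 members had more than 1 probe set. Where a gene had several, the one brightest on average across the 18 arrays was taken. All 58 symbols stood unchanged in the RefSeq gene table. A further 8 probe sets that name an Eif or Eef symbol together with another gene were not used. Eif1, Eif2s1, Eif3g and Eif4g1 were not analysed here.

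Initiation factors bring the small ribosomal subunit, the initiator tRNA and a capped mRNA together, and elongation factors deliver aminoacyl-tRNAs and move the ribosome along the message. Both steps are regulated by kinases: phosphorylation of eIF2 lowers initiation in general, 4E-BP proteins hold back the cap-binding protein eIF4E until the mTOR complex 1 phosphorylates them, and the eEF2 kinase slows elongation. Axons hold mRNAs, ribosomes and translation factors of their own, and local translation in growing axons has been studied in models of spinal muscular atrophy, the motoneuron disease caused by loss of the Smn protein.

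RNA levels were measured on 18 Affymetrix Mouse Genome 430 2.0 arrays. The cells were motoneurons of E12.5 mouse embryos, taken from spinal cord with p75-based panning and kept for 7 days in microfluidic chambers whose channels let axons pass to the other side, and RNA was taken apart from the somatodendritic side and from the axonal side. BDNF at 20 ng/ml was present on the axonal side only and CNTF at 5 ng/ml on both. There were 6 groups of 3 arrays, the same 3 genotypes in each compartment: wild-type cells that were left untreated, cells given the empty lentiviral vector, and Smn knockdown cells given a lentivirus whose short hairpin RNA targets Smn. The knockdown is a whole-culture treatment, the hairpin is the only one named in the labels, and the empty vector carries no hairpin; the labels name no mouse strain and are silent on whether a group's arrays stem from different cultures, so all p-values measure the spread between arrays. The RNA went through 2 rounds of linear amplification before labelling.

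A few properties of the arrays bear on every value below. The deposited values are on a log2 scale and were normalized separately in the 2 compartments. On each array, background was set from 150 probe sets of genes that spinal cord should lack, such as olfactory receptors; a gene is called above background in a group when it exceeds that level on all 3 arrays, and dim otherwise. The level lay between 6.26 and 6.53 on the somatodendritic arrays and between 6.39 and 7.22 on the axonal ones. Smn1 was above it on 1 of the 18 arrays, so its probe set cannot check the knockdown: the log2 difference, knockdown minus empty vector, was -0.14 ± 0.11 (SE, limma adjusted p = 0.412) in the somatodendritic and -0.66 (limma adjusted p = 0.486) in the axonal compartment. Titles of all knockdown arrays follow another numbering than those of all controls, and handling cannot be told apart from genotype. The cells' label was only in part borne out: 4 of 12 motoneuron markers (Prph, Ngfr, Ret and Foxp1) were above background in each somatodendritic group, while Chat, Slc18a3, Slc5a7, Isl1 and Mnx1 were dim. Glial markers were present as well, with 9, 9 and 8 of 11 astrocyte markers and 11, 5 and 12 of 15 microglial markers above background in the wild-type, empty-vector and knockdown groups of that compartment. In such bulk samples, fewer cells of a type and less RNA per cell cannot be told apart. On the axonal side between 6250 and 10152 genes per array exceeded background, against 10005 to 10536 on the somatodendritic side, and the correlation of an array with the somatodendritic controls was lowest for knockdown replicate 1 (0.539), knockdown replicate 3 (0.658) and empty-vector replicate 2 (0.705).

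Nearly all translation factors were detected in the somatodendritic compartment, and fewer on each step from wild-type to empty-vector to knockdown axons. Above background were 54 of 58 members in wild-type, 53 in empty-vector and 55 in knockdown somatodendritic samples, and 50, 38 and 25 in the corresponding axonal groups. Of all genes, 38.5%, 30.1% and 22.8% were above background in those 3 axonal groups, so the members followed the direction of the genome-wide figures, and the axonal background level itself was highest on the knockdown arrays (7.01 to 7.22). Altogether 22 members exceeded background in all 6 groups, among them 8 of the 11 eIF3 subunits, Eef1a1, Eef1b2 and Eef2, and 3 did so in none: the methyltransferases Eef1aknmt and Eef2kmt, and Eif4a3, a helicase of the exon junction complex. By complex, the knockdown axons kept 8 of 11 eIF3 subunits and 4 of 9 cap-binding and eIF4F genes above background on all 3 arrays. They kept 0 of 5 genes for eIF2 and other carriers of initiator tRNA and 1 of 5 eIF2B subunits. The empty-vector axons had 10, 9, 2 and 2 of these, and the wild-type axons all of them. A single array can make a gene dim by this rule: Eif2s2 read 6.13, 11.98 and 12.30 in knockdown axons. Eif2s3x, by contrast, was below background on all 3 arrays there (6.23, 6.77 and 6.82). The spread within a group also differed between compartments: the median SD of a member over 3 arrays was 0.124, 0.0896 and 0.0632 in the somatodendritic wild-type, empty-vector and knockdown groups and 0.429, 0.688 and 0.687 in the axonal ones.

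Levels within each complex covered a wide range, although probe sets of different genes are not on a common scale and each is set only against the background here. Means over the 18 arrays reached 13.29 for Eef1a1, which carries aminoacyl-tRNA to the ribosome, 13.20 for the eIF4G relative Eif4g2, 12.59 for the eIF3 subunit Eif3h, 11.78 for the eIF2 beta subunit Eif2s2 and 11.70 for Eif5, the GTPase activator of eIF2. In the same complexes the lowest means were those of Eef1a2 (8.59), Eif4e3 (7.77), Eif3b (8.49), the Y-linked eIF2 gamma gene Eif2s3y (7.27) and Eif5b (7.60). In the smaller groups the highest and lowest were Eif2b2 (9.99) and Eif2b3 (7.57) of eIF2B, Eif2ak3 (7.91) and Eif2ak2 (5.54) of the eIF2 kinases, Eif4enif1 (9.20) and Eif4ebp2 (7.77) of the eIF4E-binding regulators, Eef2 (10.21) and its kinase Eef2k (7.41), Eif5a (10.93) and Eif5a2 (8.03), and Eef1akmt1 (9.96) and Eef2kmt (5.14) of the methyltransferases. Eif6, which keeps the large subunit from joining too early, had a mean of 9.98, and Eif4a3 one of 5.93.

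Comparison of Smn knockdown with the empty vector in the somatodendritic compartment sets the hairpin virus against a virus without hairpin, in bulk RNA with glial markers. Loss of Smn, the presence of any hairpin and handling cannot be told apart in it. Of the 58 members, 7 rose and 6 fell (limma, Benjamini-Hochberg adjusted p under 0.05 over all genes), with the lowest adjusted p for the eIF2 kinases Eif2ak2 and Eif2ak4, for Eif5a2 and for the elongation factor Eef2. These 13 make 22.4% of the members, below the 28.0% called among all genes, of which the larger share fell (15.5% of all genes). The median log2 difference of the members was 0.02 and that of all genes -0.02. Groups did not overlap for 26 members (13 higher, 13 lower; 44.8%), against 43.3% of all genes. The members were thus called no more often than other genes, and the results below concern single factors. In a single fit to all 18 arrays, which takes in the wider axonal spread, only 1 member (Eif2ak2) was called, and without knockdown replicate 1, or without knockdown replicate 2, there were 7 calls.

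**Figure D1:**
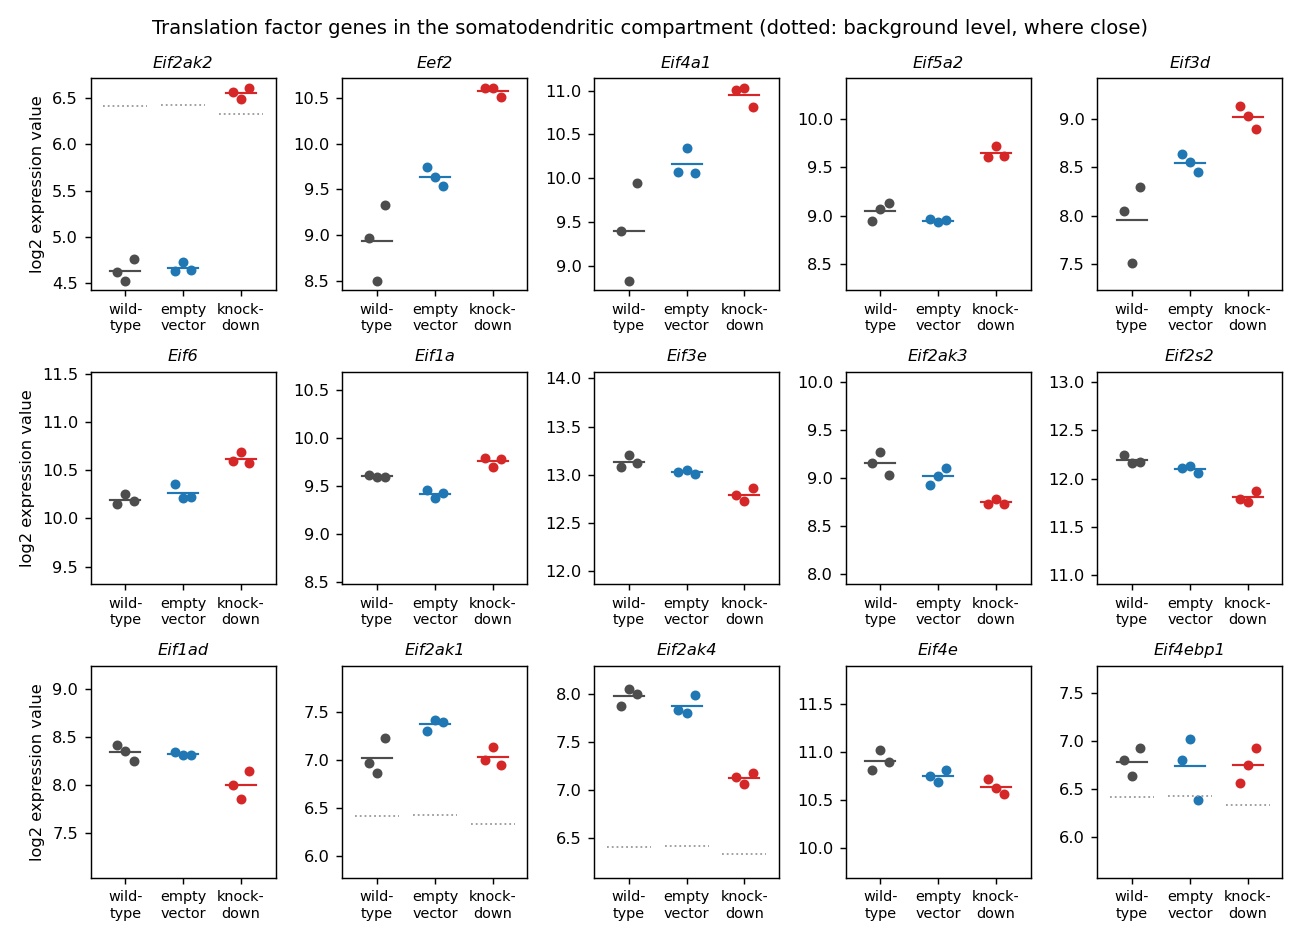
Log2 levels on the 9 somatodendritic arrays of the 13 members called between Smn knockdown and empty vector, with Eif4e and Eif4ebp1; points are arrays, horizontal lines group means (n = 3) and dotted lines the mean background level where it is near the values. Eif2ak2 lies between 6.49 and 6.61 in the knockdown and at or below 4.76 in both control groups, while Eef2 and Eif4a1 step up from wild-type through empty vector to knockdown.

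All 4 kinases of eIF2 changed, 1 upward and 3 downward. Eif2ak2 encodes PKR, the kinase activated by double-stranded RNA and itself an interferon-induced gene. Its probe set read 6.57, 6.49 and 6.61 on the knockdown arrays, 4.63, 4.73 and 4.64 on the empty-vector arrays and 4.62, 4.53 and 4.76 on the wild-type arrays. The knockdown arrays stood apart from all 6 controls, which were dim. The log2 difference from the empty vector was 1.89 ± 0.09 (SE, limma adjusted p = 2.07e-08), and since the control level is only a bound, the fold is given as at least 1.10-fold higher. Of the other 2 Eif2ak2 probe sets, both dim, one differed by 2.05 with the knockdown above all controls and one by 0.16.

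The other 3 eIF2 kinases were lower. Eif2ak4 (GCN2, which senses uncharged tRNA) read 7.14, 7.07 and 7.18 in the knockdown, 7.84, 7.80 and 7.99 with the empty vector and between 7.88 and 8.05 in wild-type cells. It fell by 0.74 ± 0.09 (SE, limma adjusted p = 5.35e-05), a 1.68-fold decrease, and the knockdown arrays lay below every control; a second, dim probe set showed a difference of 0.01. Eif2ak3 (PERK, the kinase of the endoplasmic reticulum) fell by 0.27 ± 0.09 (SE, limma adjusted p = 0.0382) from 8.93, 9.02 and 9.10 to 8.73, 8.78 and 8.73. Eif2ak1 (HRI, first known as the haem-regulated kinase) fell by 0.34 ± 0.10 (SE, limma adjusted p = 0.028) from 7.30, 7.42 and 7.39 to 7.00, 7.14 and 6.95. Against wild-type cells, whose Eif2ak1 levels were 6.97, 6.86 and 7.23, the Eif2ak1 difference was 0.01. The calls of Eif2ak3 and Eif2ak1 held in 1 and 2 of 6 fits that each left out 1 array.

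The rise of Eif2ak2 accompanied that of interferon-induced genes and of microglial markers. All 16 measured genes of an interferon-response list rose in the same comparison (median log2 difference 4.27), and the list's mean level per array lay between 9.43 and 9.76 in the knockdown, against 5.38 to 5.52 in the vector group and 5.90 to 6.00 in untreated cells. Of 15 microglial markers 14 rose (median 2.26), with list means of 8.10 to 8.43, 6.02 to 6.31 and 7.75 to 7.85 in the same order, while 8 of 11 astrocyte and 5 of 9 oligodendrocyte-lineage markers fell; of 11 fibroblast and meningeal markers 1 rose and 2 fell. Among 12 motoneuron markers, Ret (-0.75) and Foxp1 (-0.81) fell and Isl2 (0.34), dim in both groups, rose. Between wild-type and empty-vector cells 11 of the 15 microglial markers fell, so the vector group had the lowest microglial signal. The part of these cells in the members' changes was not tested.

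Because Eif2ak2 moved with the interferon list, its promoter was set beside those of Oas1a and Ifit1, 2 list genes picked as examples that hold the motif below. Both measured 9.14 or more on every somatodendritic knockdown array, as did other list genes. RefSeq promoters (GRCm38.p6, 250 bases before to 50 after a gene's start) were searched on both strands for GAAANNGAAA, the core of the element bound by interferon-regulated factors, and windows of 30 bases are shown 5′ to 3′ on the gene's strand with the matched letters in capitals.
Eif2ak2: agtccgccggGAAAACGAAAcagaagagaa
Oas1a: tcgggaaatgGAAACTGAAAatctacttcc
Ifit1: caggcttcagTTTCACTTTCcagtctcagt
The Eif2ak2 window is chr17:78882535-78882564 (minus strand), the Oas1a window chr5:120907520-120907549 (minus strand) and the Ifit1 window chr19:34640775-34640804 (plus strand, with the match on the opposite strand). The motif was present in 3.44% of all 32851 promoters, in 3 of 62 promoters of the members (Eif2ak2, Eif3a and Eif2s3x), in 1 of 5 promoters of the eIF2 kinases and in 9 of 15 promoters of the interferon list. Relative to the gene's start, the match shown lay at 18 for Eif2ak2, -14 for Oas1a and -104 for Ifit1. These matches describe letters in a window and not bound sites.

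Among the other initiation factors single members of a complex were called, in both directions for start codon selection and for eIF3. In start codon selection and subunit joining, Eif1a, which helps the small subunit scan, rose by 0.33 ± 0.08 (SE, limma adjusted p = 0.00603) from 9.46, 9.37 and 9.42 to 9.79, 9.69 and 9.78, and its relative Eif1ad fell by 0.33 ± 0.09 (SE, limma adjusted p = 0.0184) from 8.32 to 8.35 on the empty-vector arrays to between 7.86 and 8.15. The other 4 members of this group did not pass. Of the 5 initiator tRNA carriers, Eif2s2 fell by 0.29 ± 0.08 (SE, limma adjusted p = 0.0131), from 12.11, 12.13 and 12.06 to 11.79, 11.76 and 11.87. Of the 11 eIF3 subunits, Eif3d, which can itself contact the cap of some mRNAs, rose by 0.47 ± 0.16 (SE, limma adjusted p = 0.0447) and Eif3e fell by 0.24 ± 0.08 (SE, limma adjusted p = 0.0381); 9 did not pass. Of 6 fits that each left out 1 array, the call held in 0 for Eif3d, 1 for Eif3e, 3 for Eif1ad and 5 for Eif2s2. None of the 5 eIF2B subunits passed the threshold in limma. Several of these directions depended on the probe set: the second probe set of Eif1ad differed by 0.45, the other 4 of Eif2s2 by 0.43, -0.44, 1.07 and -0.24, and the second of Eif6 by -0.39. Counting over the 13 called members, 8 had another probe set above background, and for 3 of these at least 1 pointed the other way.

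On the probe sets used, the helicase Eif4a1 and the factors Eef2, Eif5a2 and Eif6 rose. Eif4a1, the RNA helicase of eIF4F that unwinds leader sequences, read 11.01, 11.03 and 10.81 in the knockdown and 10.07, 10.35 and 10.06 with the empty vector. It rose by 0.79 ± 0.21 (SE, limma adjusted p = 0.0144) or 1.73-fold, called in 4 of 6 fits that each left out 1 array. Its other 2 probe sets above background differed by 0.07 and 0.99. Eef2, the GTPase that moves the ribosome by a codon, read 10.61, 10.61 and 10.51 against 9.74, 9.63 and 9.54, a rise of 0.94 ± 0.16 (SE, limma adjusted p = 0.000852) or 1.92-fold. Its second probe set was dim and differed by -0.48. Eif5a2, a paralogue of the hypusine-bearing factor Eif5a, rose by 0.71 ± 0.08 (SE, limma adjusted p = 5.46e-05), from 8.96, 8.93 and 8.95 to 9.61, 9.72 and 9.62, and its second probe set differed by the same 0.71. Eif6 rose by 0.36 ± 0.08 (SE, limma adjusted p = 0.00606), from 10.36, 10.21 and 10.22 to 10.60, 10.69 and 10.58. Its second probe set, also above background, differed by -0.39. None of the 5 eEF1 genes, 4 methyltransferases or 3 eIF4E-binding regulators passed the threshold in limma.

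**Figure D2:**
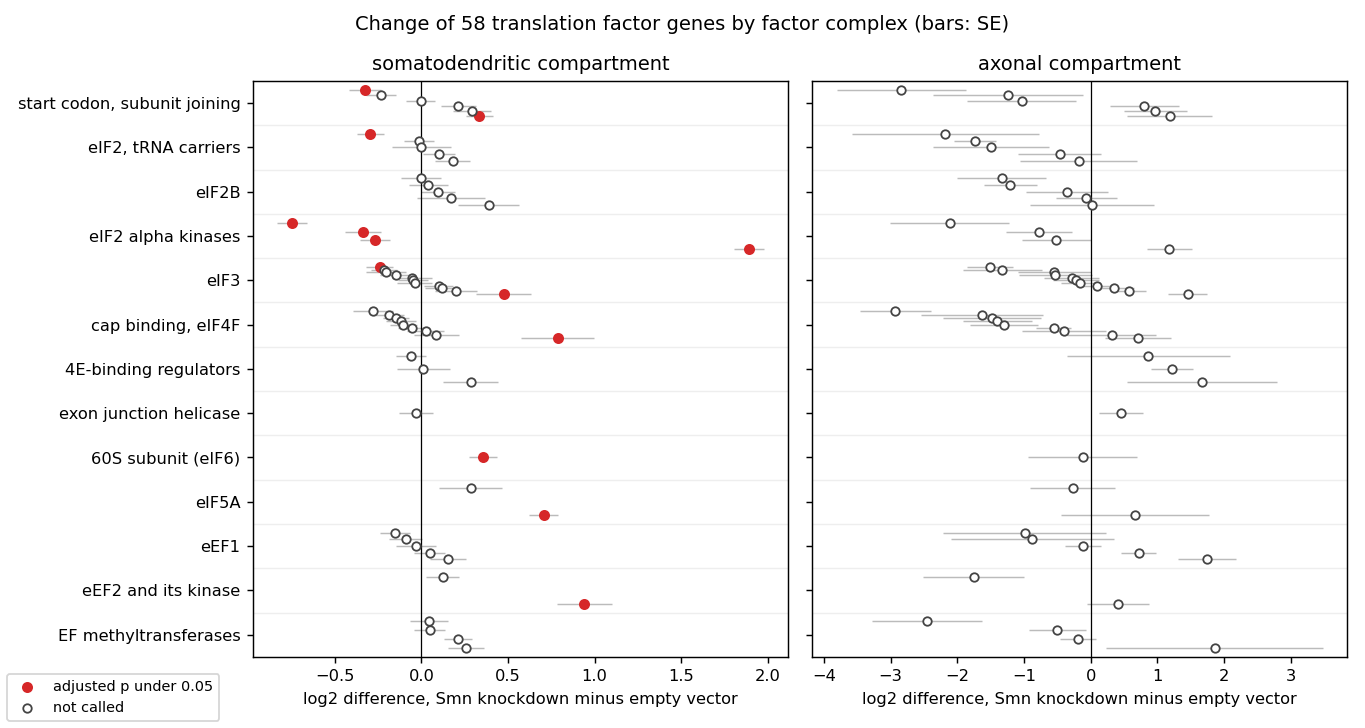
Log2 difference, Smn knockdown minus empty vector, for all 58 members ordered by factor complex, in the somatodendritic compartment (left) and the axonal compartment (right); bars are limma standard errors (n = 3 arrays per group) and red marks an adjusted p under 0.05. Red points are confined to the left panel, with 7 above and 6 below 0, and the bars are wider on the right.

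In this comparison paralogues that share a role differed in which of them was called. Eif4a1 rose, whereas its near-identical neuronal relative Eif4a2 gave -0.10 (limma adjusted p = 0.376), with knockdown levels of 11.28, 11.23 and 11.29 and empty-vector levels of 11.44, 11.29 and 11.37. Eif5a2 rose, and Eif5a gave 0.29 (limma adjusted p = 0.291). Eef1a1 and Eef1a2, the elongation factor 1A forms of growing and of mature neuronal or muscle cells, gave -0.09 (limma adjusted p = 0.543) and -0.03 (limma adjusted p = 0.884). The cap-binding proteins Eif4e, Eif4e2 and Eif4e3 gave -0.12 (limma adjusted p = 0.373), 0.09 (limma adjusted p = 0.693) and -0.28 (limma adjusted p = 0.0899). Against wild-type cells Eif5a was called higher as well, by 0.83 beside 0.61 for Eif5a2, and so was Eef1a2 by 0.42. Differences within a pair were not tested.

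With wild-type cells as the reference more members were called, and several had vector levels between those of the other groups. Against wild-type, 16 members rose and 8 fell, 41.4% of the 58, beside 36.0% of all genes (15.6% higher, 20.4% lower); the median log2 difference was 0.08 for the members and -0.04 for all genes. Both comparisons share the knockdown arrays, and the single fit to all 18 arrays called 1 member here too; without knockdown replicate 2 there were 16 calls. The 8 members with the lowest adjusted p were Eif2ak2, Eef2, Eif2ak4, Eif4a1, Eif5a2, Eif2b1, Eif3d and Eif6. Eef2 rose by 1.65 ± 0.16 on the log2 scale (SE, limma adjusted p = 1.03e-05; 3.13-fold) over wild-type levels of 8.97, 8.50 and 9.33. Eif4a1 rose by 1.56 (limma adjusted p = 0.000117; 2.94-fold) over 9.40, 8.83 and 9.95. The alpha subunit of eIF2B, Eif2b1, rose by 1.21 (limma adjusted p = 0.000191; 2.31-fold), and Eif3d by 1.07 (limma adjusted p = 0.000246; 2.10-fold). Eif4e was lower than in wild-type on the probe set used (log2 difference -0.28, SE 0.09, limma adjusted p = 0.0271; 1.21-fold). Its other 2 probe sets above background differed by 0.07 and 0.39, and the mean of its probe sets by 0.047. Of the 24 called members 11 had another probe set above background, and for 5 of these at least 1 pointed the other way.

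The empty vector alone moved 2 of these members, both upward, beside 2.00% of all genes called and 0.484% called higher. Eif2b1 read 7.99, 7.84 and 7.99 with the vector against 7.09, 6.67 and 7.59 in wild-type cells, a rise of 0.82 ± 0.18 (SE, limma adjusted p = 0.0353), and Eef2 rose by 0.70 ± 0.16 (SE, limma adjusted p = 0.0463). Neither call held when any 1 array other than wild-type replicate 3 was left out, and without wild-type replicate 3 there were 8 calls. Eef2, Eif2b1, Eif3d and Eif4a1 rose in steps without overlap from wild-type through empty vector to knockdown, 6.90% of the members against 2.94% of all genes, and Eif2s2 and Eif3e fell in the same manner (3.45% of the members, 3.26% of all genes). Wild-type replicate 2 was the lowest of the 3 wild-type arrays for 13 of the 16 members that rose against wild-type, and for 35 of all 58. The difference between the 3′ and 5′ control probe sets of Gapdh, a measure of how far amplified RNA is shortened, was highest in the knockdown. Its log2 values ran from 3.11 to 3.61 for wild-type, from 3.53 to 3.68 for empty-vector and from 3.99 to 4.12 for knockdown arrays. Wild-type and empty-vector arrays thus overlapped. The part of this measure in the members' steps was not tested.

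On the axonal side no member passed the threshold between Smn knockdown and empty vector, beside 0.176% of all genes. With limma, 15 members had an unadjusted p under 0.05 (5 higher, 10 lower; 25.9% of the members, beside 18.2% of all genes), and groups did not overlap for 15 members (25.9%) beside 21.8% of all genes. The median log2 difference of the members was -0.32 and that of all genes 0.06. Of the 15 members, 13 had groups that did not overlap, 7 were dim in the knockdown only and 3 were dim in both groups. In simulated normal data, with each gene's spread averaged over the groups, 100 of 18191 genes were shifted by 2 on the log2 scale and 100 by 1. A shift of 2 was recovered for 29% and a shift of 1 for 0%, against 100% and 91% on the somatodendritic side. In this setting the axonal arrays could show only large changes. The adjustment is stricter where so few genes are shifted, so the figures are not the power for these data. Restricting the test to genes above background gave 3 calls (1 higher, 2 lower), and leaving out knockdown replicate 2 gave 1. A single fit to all 18 arrays, which takes in the narrower somatodendritic spread, gave 18 (6 higher, 12 lower). The share of all genes called under these settings is not given here, so the counts are no result about the members.

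The lowest adjusted p among the members belonged to Eif4e and Eif2s3x. Eif4e, which binds the 5′ cap, read 7.00, 5.66 and 6.14 in knockdown axons, 9.48, 9.65 and 8.47 in empty-vector axons and 10.23, 9.06 and 8.67 in wild-type axons. All 3 knockdown arrays lay below all 6 controls and were dim as a group. The log2 difference from the empty vector was -2.93 ± 0.54 (SE, limma adjusted p = 0.0647), at least 4.16-fold lower, and from wild-type -3.05 (limma adjusted p = 0.0593), at least 4.52-fold lower. Without knockdown replicate 1 and empty-vector replicate 2, the least correlated array of each group, the difference from the empty vector was -3.08 (limma adjusted p = 0.102). Without knockdown replicates 1 and 3, the least correlated of all axonal arrays, it was -3.54 (limma adjusted p = 0.250), with the 1 knockdown array left assumed to vary like the other groups. The other Eif4e probe sets that were bright in the somatodendritic compartment differed by -0.93 and -0.92, but were dim in all axonal groups.

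Eif2s3x, the X-linked gamma subunit of eIF2 that holds the initiator tRNA, read 6.23, 6.77 and 6.82 in knockdown axons against 8.04, 8.20 and 8.79 with the empty vector and 8.71, 8.41 and 8.18 in wild-type axons. Its difference from the empty vector was -1.74 ± 0.31 (SE, limma adjusted p = 0.0647), at least 2.30-fold lower, and a second probe set gave -0.83 with the knockdown dim. Eif3b, the scaffold subunit of eIF3, read 7.11, 7.50 and 7.15 against 8.73, 8.19 and 9.35, a difference of -1.50 (limma adjusted p = 0.0877), at least 2.76-fold lower. All 3 genes were above background in both control groups of axons; in knockdown axons Eif4e and Eif2s3x were below it on all 3 arrays and Eif3b on 1, and the background level was highest there.

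Of the members with an unadjusted p under 0.05, 5 were higher in knockdown axons, and 4 of these stood above background there. Eif3k, a peripheral eIF3 subunit, read 9.82, 10.25 and 10.01 against 8.69, 8.27 and 8.75, a difference of 1.46 (limma adjusted p = 0.0743; 2.75-fold). Eif4enif1, also called 4E-T, carries Eif4e into the nucleus and takes part in silencing mRNAs; it read 9.90, 9.69 and 9.70 against 8.32, 9.12 and 8.19, a difference of 1.22 (limma adjusted p = 0.113; 2.33-fold). Eef1a2 read 10.04, 9.47 and 9.59 against 8.48, 6.94 and 8.44, a difference of 1.75 (limma adjusted p = 0.106), at least 3.19-fold; without knockdown replicate 1 and empty-vector replicate 2 it was 1.07. Eef1b2, the exchange factor of elongation factor 1A, read 13.40, 13.36 and 13.46 against 12.82, 12.39 and 12.86, a difference of 0.72 (limma adjusted p = 0.195; 1.65-fold), and its knockdown and empty-vector arrays did not overlap. For Eif3k, Eif4enif1 and Eef1a2 the knockdown arrays also lay above all 3 wild-type arrays. The interferon list was higher in knockdown axons too, with array means of 7.40 to 8.46 against 5.67 to 5.91 for the empty vector and 5.63 to 6.20 for wild-type, and Eif2ak2, the fifth of these members and dim in both groups, differed by 1.18 (limma adjusted p = 0.130). Microglial list means in axons ran from 6.68 to 9.29 in the knockdown, 5.93 to 6.17 in the vector group and 7.00 to 9.92 in wild-type; the part of such RNA in the axonal differences was not tested. Leaving out knockdown replicate 1 and empty-vector replicate 2 kept the sign of 50 of the 58 members, with a median difference of -0.42; leaving out knockdown replicates 1 and 3 also kept 50, with a median of -0.12.

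Against wild-type axons 0 members were called, beside 0.0990% of all genes, and 15 had an unadjusted p under 0.05 in limma, beside 20.9% of all genes; the median difference of the members was -0.65. Between empty-vector and wild-type axons 0 were called, beside 0.00% of all genes, and 1 had an unadjusted p under 0.05 in limma, beside 3.31% of all genes.

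**Figure D3:**
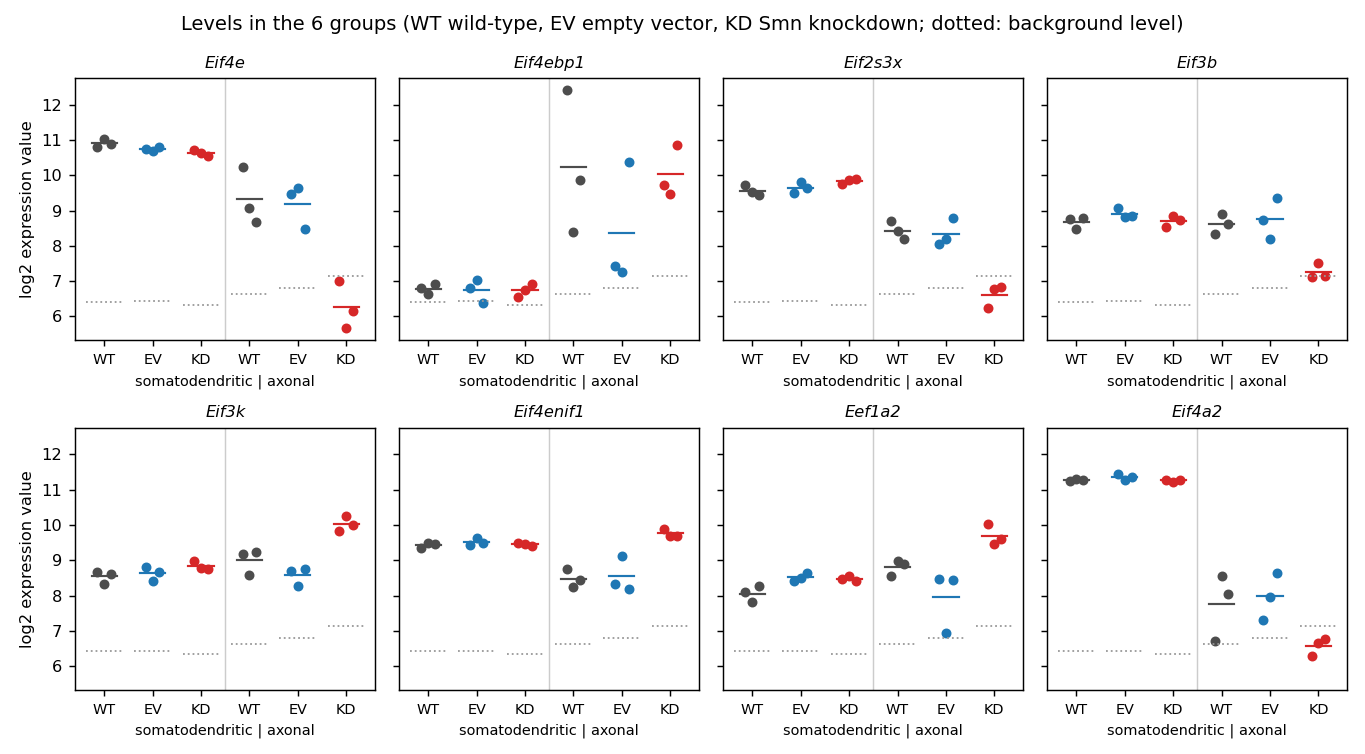
Log2 levels of 8 members in all 6 groups; points are arrays, lines are group means (n = 3) and dotted lines the mean background level of each group. Eif4e, Eif2s3x and Eif3b are dim in knockdown axons alone among these groups, whereas Eif3k, Eif4enif1 and Eef1a2 are highest there; levels of the 2 compartments were normalized separately.

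Whether the knockdown difference itself differed between the compartments was tested with an interaction term over all 18 arrays. It was called for 6 members, 3 in each direction, 10.3% of the 58, beside 6.77% of all genes (4.21% higher, 2.56% lower); the median was -0.48 for the members and 0.05 for all genes. Eif2s3x differed by -1.92 ± 0.31 (SE, limma adjusted p = 0.00529), since its somatodendritic levels were 9.74, 9.86 and 9.89 in the knockdown and 9.51, 9.80 and 9.64 with the empty vector. Eif4e differed by -2.81 ± 0.56 (SE, limma adjusted p = 0.0122), with somatodendritic levels of 10.72, 10.62 and 10.56 against 10.75, 10.68 and 10.81. The same holds for Eif3b at -1.30 (limma adjusted p = 0.0417), and in the other direction for Eif3k at 1.26 (limma adjusted p = 0.0254), Eif4enif1 at 1.28 (limma adjusted p = 0.0254) and Eef1a2 at 1.78 (limma adjusted p = 0.0349). Eif2s3x and Eif4e were called in all 18 alternative analyses run, Eif3k in 11, Eif4enif1 in 10, Eef1a2 in 8 and Eif3b in 5. For the interaction these did not include centring and scaling, or leaving out probe sets that may read several transcripts. Leaving out such probe sets removed the call of Eif2s3x between compartments in the knockdown (limma adjusted p = 0.0698) and with the empty vector. The test pools the spread of both compartments, which is lower than that of the axonal arrays alone, and the axonal knockdown groups of Eif4e, Eif2s3x and Eif3b were dim.

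Eif4ebp1 encodes 4E-BP1, the repressor of Eif4e, and followed another course. Its somatodendritic levels were close to background in every group: 6.80, 6.63 and 6.92 in wild-type, 6.80, 7.02 and 6.38 with the empty vector and 6.56, 6.75 and 6.93 in the knockdown. Axonal levels were higher and scattered, at 12.41, 8.39 and 9.87 in wild-type, 7.43, 7.25 and 10.39 with the empty vector and 9.73, 9.48 and 10.87 in the knockdown. The 3 axonal groups overlapped. Knockdown minus empty vector gave 0.01 ± 0.15 (SE, limma adjusted p = 0.969) in the somatodendritic and 1.67 ± 1.13 (SE, limma adjusted p = 0.479) on the axonal side, and the interaction was 1.66 (limma adjusted p = 0.465). With a standard error this large, a change of several fold in either direction could not have been called. Axonal wild-type replicate 1, with 12.41 for Eif4ebp1, read 13.25 for the microglial Csf1r and 13.14 for the fibroblast Col1a2. Replicates 2 and 3 read 7.84 and 11.32 for Csf1r and 6.14 and 6.3 for Col1a2. Axonal empty-vector replicate 3, with 10.39 for Eif4ebp1, read 13.53 for the fibroblast-list gene Acta2, but replicate 2, with 7.25, read 12.89. The part of such RNA in the Eif4ebp1 levels was not tested. In order of group mean, Eif4ebp1 was highest in wild-type axons (10.22), then knockdown axons (10.03) and empty-vector axons (8.36), with the 3 somatodendritic groups at 6.73 to 6.78, whereas Eif4e was highest in the 3 somatodendritic groups (10.91, 10.75 and 10.63 in wild-type, empty-vector and knockdown), then in wild-type (9.32) and empty-vector axons (9.20), and lowest in knockdown axons (6.27). Neighbours within a compartment did not differ by the fits, the nearest being Eif4e between empty-vector and knockdown axons, whose arrays did not overlap (limma adjusted p = 0.0647); the steps between compartments depend on scaling, as given next.

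Differences between axons and cell bodies depend on how the separately normalized compartments are put on a common scale, so each was computed on the deposited values, after quantile normalization of all 18 arrays together, and after centring and scaling each array; values below are in this order. The median of all genes was shifted toward the axon by 0.17, 0.18 and 0.12 in wild-type samples, 0.17, 0.21 and 0.17 with the empty vector and 0.13, 0.21 and 0.20 in the knockdown. On the deposited values, 17 members were called in wild-type cells (8 higher in axons, 9 lower; all genes 29.1%, with 14.9% higher and 14.2% lower), 15 with the empty vector (3 higher, 12 lower; all genes 42.0%, with 23.7% and 18.2%) and 32 in the knockdown (6 higher, 26 lower; all genes 61.7%, with 34.0% and 27.7%). Joint normalization gave 9 higher and 3 lower, 7 and 3, and 13 and 15, where it called 8.64%, 19.0% and 48.3% of all genes. Scaling gave 16 and 2, 14 and 1, and 18 and 12, where it called 9.93%, 18.8% and 46.1% of all genes. The balance of directions in wild-type and empty-vector cells thus turned with the scale, and the sign was the same under all 3 for 40, 34 and 43 of the 58 members.

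Under every one of the 3 scales, 6 members were called higher and 2 lower in wild-type axons, beside 2.65% and 3.24% of all genes. Higher were Eef1b2, Eef2, Eif3d, Eif4a1, Eif4e2 and Eif4ebp1. Eef2 differed by 1.66, 2.48 and 2.90 and Eif3d by 1.41, 2.18 and 2.26. Eif4ebp1 differed by 3.44, 3.88 and 4.31 (limma adjusted p = 0.0118 on the deposited values); its other probe sets differed by 2.33 and 0.41. Lower were Eif4a2 and Eif2ak3. Eif4a2 read 6.72, 8.56 and 8.03 in wild-type axons and 11.26, 11.30 and 11.27 in the cell bodies, a difference of -3.51, -2.78 and -2.53 (limma adjusted p = 6.33e-05 on the deposited values; 11.4-fold). With the empty vector Eif4a2 again differed by -3.40, -2.60 and -2.29 and, apart from the dim Eif4a3, it was the only member called under all 3, beside 7.90% of all genes higher and 5.32% lower. Eif2ak3 differed by -2.17, -1.59 and -1.65 in wild-type cells, with its axonal group dim. By contrast, Eif4e differed by -1.59, -0.64 and -0.33 in wild-type cells, called only on the deposited values (limma adjusted p = 0.0113, 0.381 and 0.708), and Eif3e (-0.93, -0.63 and 1.23) changed sign, as did Eef1a1 (-0.37, -0.23 and 2.02).

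In knockdown cells 6 members were called higher and 12 lower in axons under all 3 scales, beside 25.1% of all genes higher and 14.1% lower. Eif4e differed by -4.36, -3.78 and -3.63, at least 11.2-fold on the deposited values, Eif4a2 by -4.70, -4.12 and -3.81, at least 17.4-fold, and Eif2s3x by -3.22, -2.56 and -2.53, at least 6.44-fold. Eif3m, an eIF3 subunit, differed by -2.88, -2.06 and -2.02, Eif5a2 by -3.13, -2.44 and -2.48 and Eif2b5, the catalytic subunit of eIF2B, by -2.05, -1.46 and -1.51. Each of these was dim in the knockdown axons. Higher were Eef1a2, Eef1b2, Eif3i, Eif3k, Eif4ebp1 and the dim Eif4a3; Eif4ebp1 differed by 3.28, 3.85 and 4.23 (limma adjusted p = 0.00476 on the deposited values, and 0.0948 without axonal knockdown replicates 1 and 3).

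**Figure D4:**
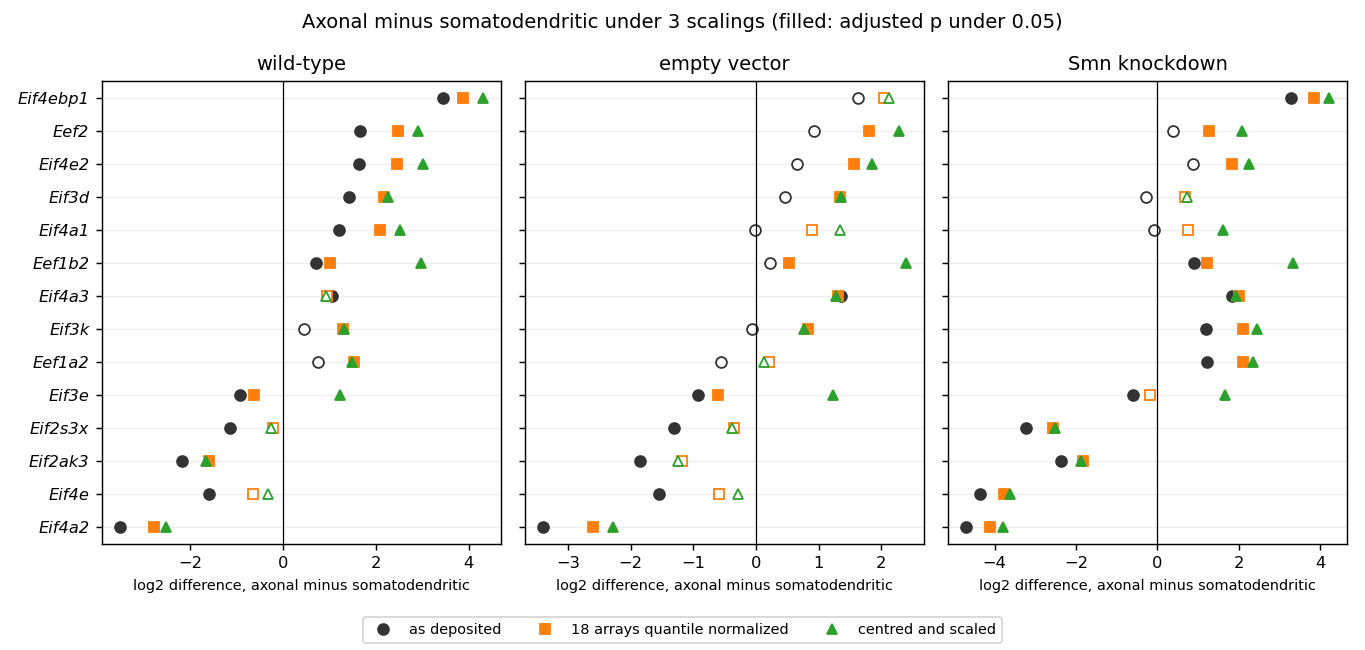
Log2 difference, axonal minus somatodendritic, of 14 members in each genotype under the 3 ways of scaling the arrays; filled symbols mark a limma adjusted p under 0.05. Eif4a2 is below 0 and filled in all panels, Eif4ebp1 above 0 in all, and Eif3e changes sides with the scale in wild-type cells (-0.93 deposited, 1.23 centred and scaled).

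Genes of the pathways that act on these factors were examined as 3 lists, whose counts stand beside 28.0% of all genes called in the somatodendritic compartment. In the somatodendritic compartment, between knockdown and empty vector, 4 of 19 genes around mTOR complex 1 and eIF4E rose and 3 fell (median log2 difference 0.01), among them Larp1, which binds the leaders of translation factor and ribosomal protein mRNAs (0.70, limma adjusted p = 0.000649), the mTOR inhibitor Tsc2 (0.64, limma adjusted p = 0.00164), the Eif4a inhibitor Pdcd4 (-0.38, limma adjusted p = 0.00473) and the Eif4e kinase Mknk2 (0.42, limma adjusted p = 0.00795). Of 16 genes of the integrated stress response, the programme downstream of the eIF2 kinases, or acting on it, 5 rose and 2 fell (median 0.07). Impact, an inhibitor of Eif2ak4, rose 2.37-fold, from at most 9.62 on the empty-vector arrays to 10.54, 10.51 and 10.38. Ddit3 (CHOP) rose 2.10-fold and Atf3 at least 2.05-fold, both stress-induced transcription factors, and Sesn2 rose by 0.43. Atf3 was lower with the empty vector (6.45, 6.86 and 6.13) than in wild-type cells (7.16, 7.22 and 7.17), and read 7.42, 7.51 and 7.92 in the knockdown. Ddit3 lay between 7.08 and 7.63 in wild-type cells and between 7.12 and 7.55 with the empty vector. Atf4 read 10.35, 10.26 and 10.27 in the knockdown against 10.03, 10.61 and 9.92, so its groups overlapped. Without overlap, 6 of the 16 were higher in the knockdown and 3 lower (56.2%, beside 43.3% of all genes without overlap). The 3 lower ones were Nck1, Ppp1r15a and Psat1. Of 15 genes of termination, recycling and hypusine synthesis 5 rose and 1 fell (median 0.08); Dhps, which makes the hypusine of Eif5a, rose 1.46-fold, the ribosome rescue factor Pelo at least 1.39-fold and the dim selenocysteine factor Eefsec by 0.65, and the release factor gene Gspt2 fell by 0.42. In axons no gene of the 3 lists was called, and 6, 3 and 3 of them had an unadjusted p under 0.05 in limma, beside 18.2% of all genes; their medians were -0.21, -0.38 and -0.42.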

How the data were processed

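The authors deposited log2 expression values of 45101 probe sets per array, made by software not given in the sources used here. Sorted values differed by at most 0.0048 among somatodendritic and 0.0125 among axonal arrays, so each compartment had been brought to its own distribution. Probe sets naming 1 gene (34958) were kept and the one with the highest mean stood for its gene; 64 control probe sets and 11 with missing values were left out. limma 3.58.1 in R 4.3.3 (lmFit, eBayes) was fitted over 18191 genes, on the 9 arrays of a compartment or, between compartments and for the interaction, on all 18, with Benjamini-Hochberg adjustment at 0.05. The number of arrays, 3 per group, limits the precision. Background was the 95th percentile of 150 probe sets; "at least" folds are taken against it. Tests were checked on simulated data, and repeated with other probe set choices, filters, variance models, scalings and with each array left out. Members and lists were chosen with earlier results of these data known. Named were Eif4e and Eif4ebp1, members called between knockdown and empty vector, and at most 8 per other comparison. Paralogue pairs, the highest and lowest member per complex, and 4 genes per pathway list were named too. Named after their values were seen were members called under all 3 scales, stepped members, Eif3i and the marker genes. The same holds for the stress response genes Atf4, Nck1, Ppp1r15a and Psat1. The labels do not say whether title numbers shared between control groups pair arrays. Of 18 correlations between such arrays, taken as deviations from their group means, 1 exceeded 0.1 (-0.19 to 0.23). With 3 arrays per group this cannot exclude pairing.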

Additional observations from a re-analysis of the deposited data

Results flagged for a closer look

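For 6 members the difference between Smn knockdown and empty vector differed between the compartments by the interaction term. The values, axonal minus somatodendritic on the log2 scale, were -1.92 for Eif2s3x, -2.81 for Eif4e, 1.26 for Eif3k, 1.28 for Eif4enif1, 1.78 for Eef1a2 and -1.30 for Eif3b. A further member, the eEF1A methyltransferase Eef1akmt2, had every knockdown array above the empty-vector arrays on the somatodendritic side (8.99, 9.02 and 8.98 against 8.85, 8.72 and 8.79) and every one below them on the axonal side (5.38, 5.39 and 7.11 against 7.75, 9.84 and 7.66). Its interaction of -2.67 did not pass the threshold (limma adjusted p = 0.083).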

How the results depend on the processing

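Nothing among these limits was traced, and where a call or sign changed, the cause was not tested. Known is only that a single fit to all arrays pools the spread of both compartments and leave-one-out fits have fewer arrays. The single fit called 1 member between knockdown and empty vector and 1 between knockdown and wild-type on the somatodendritic side, 0 between empty vector and wild-type there, and 18 and 16 in the knockdown comparisons on the axonal side. With only genes above background tested, the 2 axonal comparisons gave 3 and 2 calls, and array weights gave 4 for knockdown against wild-type axons. Shares of all genes called under these settings are not given here, so such counts do not set the members apart from other genes. The mean of a gene's probe sets left 1 call between empty vector and wild-type. The interaction had 2 calls with an intensity trend and 3 with array weights. Leaving out axonal knockdown replicates 1 and 3, chosen after seeing the data, gave 0 calls in both axonal knockdown comparisons and 26 between compartments in the knockdown. Whether the array numbers pair the samples is not known. With the numbers fitted as a replicate block, the empty vector against wild-type gave 0 calls. Axonal against somatodendritic then gave 7 in wild-type (2 higher, 5 lower) and 6 with the empty vector (1 higher, 5 lower). No block could be fitted for comparisons that hold knockdown arrays, whose numbering differs. Leaving out 1 array gave 7 to 12, 16 to 25 and 0 to 8 calls in the 3 somatodendritic comparisons (knockdown against empty vector, knockdown against wild-type, empty vector against wild-type), 0 to 1, 0 to 1 and 0 to 0 in the axonal ones, 13 to 16, 10 to 16 and 28 to 34 between compartments (wild-type, empty vector, knockdown), and 2 to 9 for the interaction. Of the named genes' values under the alternatives, 597 kept direction and side of the threshold, 86 lost and 5 gained a call, and 27 changed sign. With the mean of all probe sets, knockdown minus empty vector became -0.018 for Eif6, 0.097 for Eif2s2, 0.059 for Eif1ad and 0.10 for Eif4e on the somatodendritic side, and knockdown minus wild-type -0.015 for Eif6 and 0.047 for Eif4e; empty vector minus wild-type became 0.062 for Eif4e in axons, and Eif2ak3 differed between compartments by 0.33 with the empty vector and 0.33 in the knockdown. Without probe sets that may read several transcripts, Eif2ak4 gave 0.0065 and 0.092 and Eif6 -0.39 and -0.46 (against empty vector and wild-type), Eif4ebp1 0.19 for knockdown and 0.070 for empty vector against wild-type, and Eif3e 0.35 (wild-type) and 0.91 (empty vector) between compartments, where centring and scaling gave 1.23 and 1.22. Array weights gave 0.31 for Eif4ebp1 between knockdown and wild-type axons and 0.093 for Eif4e between empty-vector and wild-type axons; with wild-type as the control the interaction of Eif4ebp1 was -0.16. Leaving out 1 array took Eif4ebp1 from -0.17 to 0.16, -0.13 to 0.056 and -0.19 to 0.13 in the 3 somatodendritic comparisons and from -1.11 to 0.90 between knockdown and wild-type axons, and Eif4e from -0.45 to 0.34 between empty-vector and wild-type axons.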
